A study of Mus musculus with 12 samples.

Results

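The genes described here are 10 genes that place, copy, remove or protect DNA methylation in mouse cells: *Dnmt1*, *Uhrf1*, *Dnmt3a*, *Dnmt3b*, *Dnmt3l*, *Tet1*, *Tet2*, *Tet3*, *Tdg* and *Dppa3*. They were chosen by name, and all 10 were found among the 57180 genes of the deposited tables and among the 25446 genes with enough counts to be tested. RNA was sequenced from 12 libraries of one mouse embryonic stem cell (ESC) line, E14, in which a catalytically dead Cas9 fused to repressor domains is expressed from a TetO promoter. The activator TetOn3G, a doxycycline-responsive protein unrelated to the *Tet* genes, is driven by a CAG promoter, and both transgenes sit at the Tigre locus of a single picked clone, so all 4 groups share them. Scramble guide RNAs define the Neg line, and guide RNAs for the repression of *Pcx*, *Me1* and *Me2*, enzymes that take up and cycle pyruvate carbon around the TCA cycle, define the 3xKD line. Each line was sequenced as ESCs, kept in the naive medium N2B27 with 2i and LIF, and as epiblast-like cells (EpiLCs) on day 2 of induction with Activin A, Fgf2 and XAV939, with 3 libraries in each of the 4 groups. Doxycycline is not named in the labels of the libraries. The methods of the study give culture with DMSO or doxycycline before RNA sequencing. A figure legend of the study gives doxycycline treatment for the expression of metabolic genes in both lines and both states. Cell lines of the study were kept under hypoxic conditions.

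The libraries held between 11221023 and 19652197 estimated counts. The labels' cell-type field gives 1 state to all libraries of a line, whereas the titles give both states to both lines, and the groups follow the titles. The markers bear on this, given in CPM (counts scaled to a common library size). The summed level of 10 naive markers (*Klf4*, *Esrrb*, *Zfp42* and others) was 4719 to 4863 CPM in Neg ESCs and 3289 to 3342 CPM in 3xKD ESCs. It was 713 to 731 CPM in Neg EpiLCs and 631 to 652 CPM in 3xKD EpiLCs. *Fgf4*, 1 of the 10, went the other way, with means of 80.2 CPM in Neg ESCs and 245.7 CPM in Neg EpiLCs. In 3xKD EpiLCs its mean was 110.9 CPM, which lowers their sum. Between 3xKD and Neg EpiLCs, 7 of the 10 had a log2 fold change above 0, with a median of 0.19. The lower sum in 3xKD EpiLCs thus does not stand for most of the list. The summed level of 9 formative markers (*Fgf5*, *Otx2*, *Pou3f1* and others) was 280 to 284 CPM in Neg ESCs, 184 to 196 in 3xKD ESCs, 1468 to 1614 in Neg EpiLCs and 758 to 782 in 3xKD EpiLCs. All 3 targeted genes were lower in 3xKD, with log2 fold changes between −1.14 and −0.89. The methods of the study describe its experiments in general as biological triplicates, while the labels of these libraries do not say what separates the replicates, and p-values measure the spread between the libraries. In bulk RNA, fewer cells that express a gene and less RNA of it per cell cannot be told apart.

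In mammalian DNA a methyl group sits mostly on the cytosine of a CG dinucleotide (CpG). DNMT3A and DNMT3B write it de novo with the catalytically inactive partner DNMT3L, and DNMT1, brought to newly replicated DNA by UHRF1, copies it to the daughter strand. TET1, TET2 and TET3 oxidise it with alpha-ketoglutarate and oxygen, TDG excises the most oxidised forms so that base excision repair restores an unmethylated cytosine, and DPPA3 (STELLA) keeps UHRF1 away from chromatin. Naive cells in 2i hold little DNA methylation, and the genome is methylated again as cells leave the naive state. The data here are RNA levels alone: no methylation was measured.

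The following 3 upstream stretches are shown here because they precede the start sites behind the largest induction in EpiLCs (*Dnmt3b* and the internal start of *Dnmt3a*) and the one called rise among the 10 genes in 3xKD ESCs (*Uhrf1*). Each is the 250 bases before the annotated start of the transcript with the most counts at that site, 5′ to 3′ on the gene's strand in GRCm39, with each CG in capitals. None of the 3 overlaps an annotated exon of its own gene.

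*Dnmt3a* internal start, chr12:3941478-3941727, plus strand: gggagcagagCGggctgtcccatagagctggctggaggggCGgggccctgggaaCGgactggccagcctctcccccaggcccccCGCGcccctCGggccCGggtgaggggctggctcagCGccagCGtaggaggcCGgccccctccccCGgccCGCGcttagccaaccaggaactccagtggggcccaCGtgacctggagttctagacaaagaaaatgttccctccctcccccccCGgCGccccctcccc
*Dnmt3b*, chr2:153491073-153491322, plus strand: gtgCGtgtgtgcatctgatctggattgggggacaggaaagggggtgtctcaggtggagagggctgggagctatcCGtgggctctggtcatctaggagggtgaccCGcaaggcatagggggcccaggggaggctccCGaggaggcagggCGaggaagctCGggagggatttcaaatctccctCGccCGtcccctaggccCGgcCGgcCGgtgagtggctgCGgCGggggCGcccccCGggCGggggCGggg
*Uhrf1*, chr17:56610025-56610274, plus strand: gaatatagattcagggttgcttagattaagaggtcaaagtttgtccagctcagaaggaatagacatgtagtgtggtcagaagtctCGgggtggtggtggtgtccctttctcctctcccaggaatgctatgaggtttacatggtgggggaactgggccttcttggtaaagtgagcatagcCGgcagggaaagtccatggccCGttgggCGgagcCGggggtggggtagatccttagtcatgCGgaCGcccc

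In GRCm39 the genes lie at chr12:3856007-3964443 (*Dnmt3a*), chr2:153490861-153529650 (*Dnmt3b*), chr10:77877781-77899456 (*Dnmt3l*), chr9:20817945-20871184 (*Dnmt1*), chr17:56610275-56630489 (*Uhrf1*), chr10:62640349-62744775 (*Tet1*), chr3:133169436-133250900 (*Tet2*), chr6:83339355-83436066 (*Tet3*), chr10:82465610-82489654 (*Tdg*) and chr6:122586548-122607237 (*Dppa3*). The printed windows held 16, 17 and 7 CpGs, against a median of 10 (quartiles 5 and 16) over 13233 promoters of expressed protein-coding genes. Those promoters are windows of the same length, cut at the outermost annotated start of each gene. Of the printed starts only that of *Uhrf1* is the outermost of its gene. The promoters are thus an unlike reference for the *Dnmt3a* and *Dnmt3b* windows. The window before the upstream *Dnmt3a* start held 40, more than 99.5% of those promoters, although 158 of its bases lie in exons of other *Dnmt3a* transcripts. The letters CACGTG (an E-box, searched on both strands) were found in the internal *Dnmt3a* window and in none of the other 2 printed, and 7.08% of all the promoters hold them. The letters CTTTGA, found in the *Uhrf1* window, occur in 12.9% of the promoters. A match of letters is a description and not a bound site.

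The question for the first comparison is how RNA of these genes differs when control cells leave the naive state. Between Neg ESCs and Neg EpiLCs the de novo methylation genes rose several-fold, *Tet1* and *Tdg* rose to a lesser extent, *Tet2* and *Dppa3* fell, and *Dnmt1*, *Uhrf1* and *Tet3* were not called. A gene is called here at an adjusted p under 0.01 with an absolute log2 fold change above 0.58 (edgeR quasi-likelihood test, Benjamini-Hochberg adjustment over all 25446 genes). By this rule 5 of the 10 genes were higher and 2 lower in Neg EpiLCs, where 20.8% of all genes tested were called (9.78% higher and 11% lower), and 30.7% of the 15032 with a mean level of 1 CPM or more.

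*Dnmt3b*, one of the pair of de novo methyltransferases, gave 91.7, 92.3 and 92.7 CPM in the 3 Neg ESC libraries and 1466, 1273 and 1363 CPM in the Neg EpiLCs. Every EpiLC library lay far above every ESC library, a 14.8-fold difference of the means (log2 fold change 3.89, standard error (SE) 0.051, adjusted p = 1.3e-18 in edgeR). *Dnmt3a*, the other de novo enzyme, went from 138, 146 and 133 CPM to 1152, 1081 and 1111 CPM, an 8.01-fold rise (log2 fold change 3.00). Under transcript-length offsets this value was 3.60 (SE 0.11), close to that of *Dnmt3b* at 3.89. The cofactor gene *Dnmt3l* went from 97.0, 105 and 107 CPM to 824, 794 and 820 CPM, a 7.87-fold rise (log2 fold change 2.97, SE 0.039). Among 9634 genes at a mean level of 10 CPM or more, those whose log2 CPM followed *Dnmt3b* most closely over the 12 libraries were *Vrtn*, *A930007A09Rik* and *Pml*, each with Pearson's r of 0.998. For *Dnmt3a* they were *Lefty1*, *Plekha1* and *Tmem254* (r of 0.996 to 0.997), and for *Dnmt3l* they included *Jmjd1c* and *Zfp512b* (0.999 and 0.998). The 12 libraries share their group means, and the number of genes searched is large, so these are descriptions of likeness without a test.

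*Tet1*, one of the dioxygenase genes, gave 420.1, 469.8 and 445.1 CPM in Neg ESCs and 856, 925 and 897 CPM in Neg EpiLCs (log2 fold change 1.00, SE 0.044, adjusted p = 7.4e-12). *Tet2* moved the other way, from 328, 346 and 346 CPM to 193, 215 and 223 CPM (log2 fold change −0.69, SE 0.048). *Tet3* stayed between 54.1 and 61.1 CPM in the 6 Neg libraries and was not called. Per kilobase of the longest coding transcript, the scale on which genes can be set side by side, *Tet1* made up 42.1% ± 0.926 (SD, n = 3) of the RNA of the 3 *Tet* genes in Neg ESCs and 68.9% ± 0.878 in Neg EpiLCs. On this scale *Tet2* had the larger share in Neg ESCs, at 50.4% ± 0.595. That lead depends on the annotated lengths used, 14369 bases for *Tet1* and 9179 for *Tet2*. In CPM *Tet1* was above *Tet2* in every Neg ESC library.

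*Tdg*, the glycosylase gene, rose from 94.9, 91.7 and 92.4 CPM to 182, 172 and 176 CPM (log2 fold change 0.93, SE 0.033). *Dppa3*, which holds UHRF1 off chromatin, gave 13.3, 13.2 and 12.6 CPM in Neg ESCs and 0.6 CPM in each Neg EpiLC library. Those EpiLC levels rest on 10, 9 and 10 counts, and the ESC levels on 150, 192 and 247 counts (log2 fold change −4.38, SE 0.18). *Dnmt1*, the maintenance methyltransferase gene, lay between 273 and 302 CPM in all 6 Neg libraries (log2 fold change −0.07, adjusted p = 0.097). *Uhrf1* gave 596, 616 and 588 CPM in Neg ESCs and 473, 469 and 468 CPM in Neg EpiLCs, groups that did not overlap but differed by less than the fold limit (log2 fold change −0.35).

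**Figure D1:**
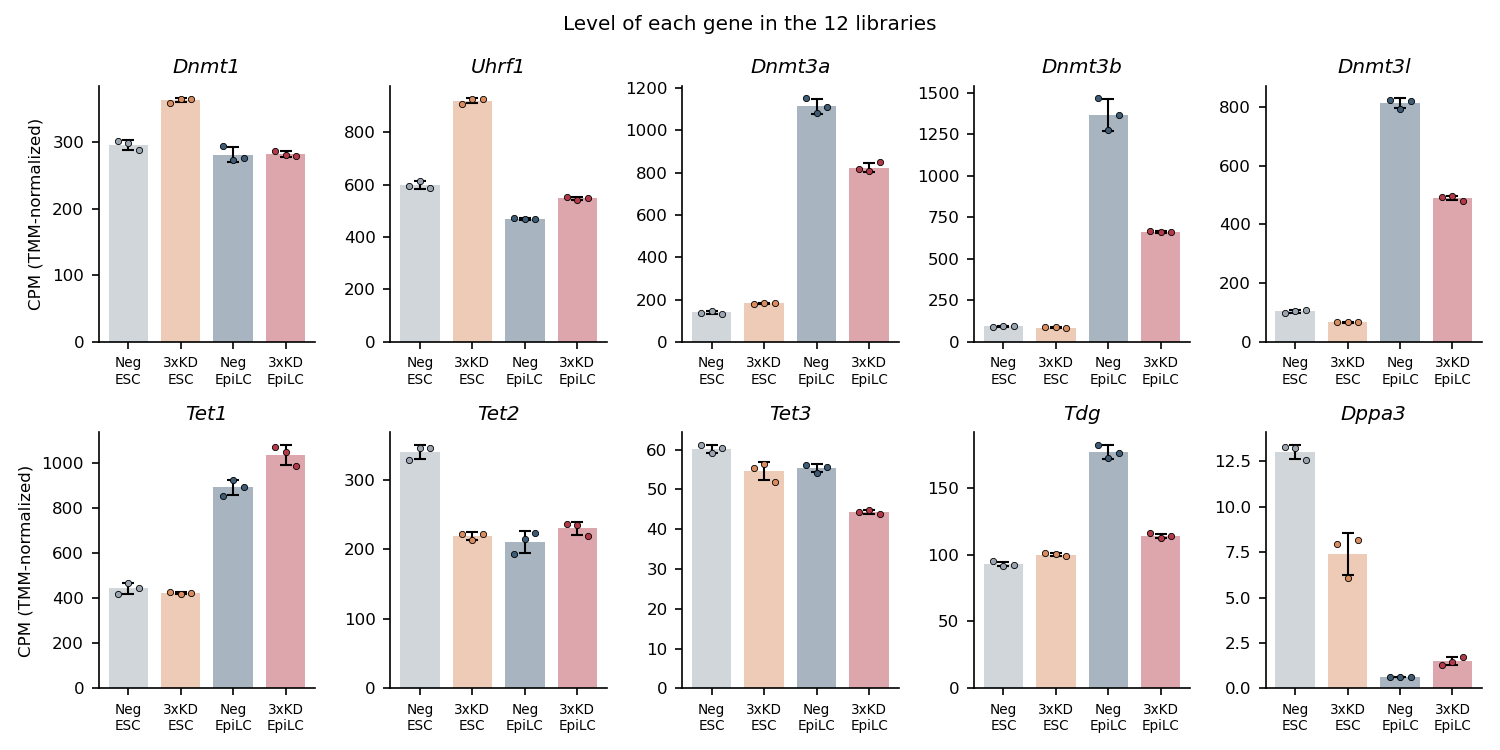
TMM-normalized CPM (vertical axes, each from 0) of the 10 genes in the 4 groups. Points are the 12 libraries, bars are group means and error bars are SD (n = 3). *Dnmt3a*, *Dnmt3b* and *Dnmt3l* rise from at most 183 CPM in any ESC library to at least 480.4 CPM in any EpiLC library, and in EpiLCs the 3xKD points of these 3 genes lie below the Neg points.

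Per kilobase, *Uhrf1* had the highest level of the 10 in Neg ESCs, with 167 CPM per kilobase, followed by *Dnmt3l* at 56.7 and *Dnmt1* at 50.4. In Neg EpiLCs the order was led by *Dnmt3l* at 446 and *Dnmt3b* at 317, ahead of *Uhrf1* at 131 and *Dnmt3a* at 115. *Dnmt3a* and *Dnmt3b* together were 0.525 ± 0.0179 (SD, n = 3) times *Tet1* and *Tet2* together in Neg ESCs and 5.09 ± 0.543 times in Neg EpiLCs. The ratio of *Dnmt3a* to *Dnmt3b* went from 0.673 ± 0.0318 to 0.364 ± 0.0141, with no overlap between libraries. The order of genes and these ratios use 1 fixed length per gene, whereas the mix of long and short *Dnmt3a* transcripts differed between the states. *Dnmt3a* was divided by 9685 bases, although its internal transcript has 2328, so its level and rank per kilobase may be too low. Order and ratios are given without a test.

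*Dnmt3a* RNA starts at 2 annotated places 84568 bases apart, an upstream CpG-dense start that gives the long protein and an internal start that gives the shorter DNMT3A2. The upstream site took 71.4% ± 1.09 (SD, n = 3) of the gene's estimated counts in Neg ESCs and 46.6% ± 0.828 in Neg EpiLCs. The internal site took 26.2% ± 2.04 and 48.4% ± 1.16. In CPM, the upstream class was 99.2 ± 5.24 in Neg ESCs and 519 ± 12.4 in Neg EpiLCs, a ratio of 5.23. The internal class was 36.4 ± 3.79 and 539 ± 24.5, a ratio of 14.8, so both starts gained RNA and the internal one gained the larger multiple. In 3xKD cells the same ratios were 2.94 and 8.05. The share of the internal site was 28.2% ± 1.45 in 3xKD ESCs and 50.02% ± 1.85 in 3xKD EpiLCs, and in each state its range over libraries overlapped that of Neg. Shares rest on the authors' Salmon estimates, which divide the reads of shared exons between transcripts by a model. A longer transcript also gives more counts per molecule. The leading upstream transcripts are 8737 and 9685 bases long, and the internal one is 2328. The larger count share of the upstream site in ESCs thus does not show that more molecules start there.

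**Figure D2:**
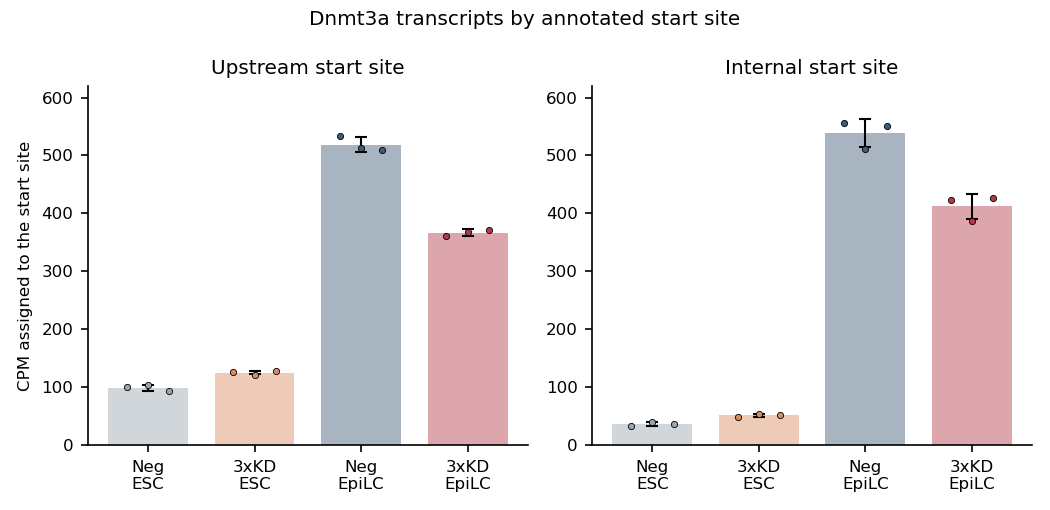
CPM of *Dnmt3a* assigned to the upstream (left) and the internal (right) annotated start site. Points are libraries, bars are group means and error bars are SD (n = 3). The internal site rises from a mean of 36.4 to 539 CPM in Neg cells and the upstream site from 99.2 to 519 CPM, and for both sites the 3xKD EpiLC points lie below the Neg EpiLC points.

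The second comparison asks how the 3xKD line differs from the Neg line in naive ESCs. The guides and the line differ together, so repression of the 3 pyruvate enzymes and other differences between the lines cannot be told apart. The 3xKD effect below means the difference between the lines. In 3xKD ESCs *Uhrf1* was higher, *Dnmt3l*, *Tet2* and *Dppa3* were lower, and the other 6 genes were not called. The 4 called of 10 stand beside 15.3% of all genes called in this comparison and 23.6% of those at 1 CPM or more. Higher calls made up 8.5% and lower calls 6.76% of the genes tested.

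*Uhrf1*, the reader that brings DNMT1 to hemimethylated DNA, gave 910.0, 927 and 926 CPM in 3xKD ESCs, each above every library of the other 3 groups and 154% of the Neg ESC mean (log2 fold change 0.62, SE 0.029, adjusted p = 8.7e-11). *Dnmt1* pointed the same way at a size below the fold limit, with 359.6, 365 and 365 CPM (log2 fold change 0.30, SE 0.034, adjusted p = 1.9e-06). Across the 12 libraries the log2 CPM of these 2 genes had a Pearson's r of 0.96, where libraries of a group share their condition. The genes most like *Uhrf1* were *Stac2*, *Calm3* and *Ndufa4l2* (r of 0.993 to 0.995). The summed level of 18 S phase genes was 3757 to 3808 CPM in 3xKD ESCs and 3414 to 3529 CPM in Neg ESCs. Of the 18, 1 was called higher, *Mcm4* (0.60). Its mean was 466 CPM in 3xKD ESCs and 308 CPM in Neg ESCs, which makes up a part of the higher sum. *Mcm4* is a gene of chromosome 16, where the median over 454 genes was 0.30 on the log2 scale in both knockdown comparisons, and none of the 10 genes lies there. A list of 10 G2 and mitosis genes summed to 2874 to 2963 CPM in 3xKD ESCs and 2399 to 2467 CPM in Neg ESCs, with none called. The part of cell cycle phase in the *Uhrf1* difference was not tested.

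*Dnmt3l* was at 65.9, 67.0 and 66.0 CPM in 3xKD ESCs, below all 3 Neg ESC libraries (log2 fold change −0.64, SE 0.039, adjusted p = 1.5e-09). *Dnmt3a* lay the other way, at 180, 182 and 183 CPM against 133 to 146 CPM in Neg ESCs, below the fold limit (log2 fold change 0.39, SE 0.039, adjusted p = 4.7e-07). Under transcript-length offsets the same *Dnmt3a* value was 0.59 and passed the limit (adjusted p = 0.0012). *Dnmt3b* was at 89.0, 86.5 and 80.7 CPM (log2 fold change −0.11, adjusted p = 0.087). Per kilobase, *Dnmt3l* thus went from 1.59 ± 0.0873 times the sum of *Dnmt3a* and *Dnmt3b* in Neg ESCs to 0.945 ± 0.0204 times in 3xKD ESCs.

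*Tet2* was at 222, 213 and 222 CPM in 3xKD ESCs, 64.4% of the Neg ESC mean (log2 fold change −0.64, SE 0.048, adjusted p = 1.5e-08). All 3 values lay within the range of the Neg EpiLC libraries, 193 to 223 CPM, and overlapped the 219 to 237 CPM of 3xKD EpiLCs. *Tet1*, *Tet3* and *Tdg* differed by −0.07, −0.14 and 0.11 on the log2 scale (adjusted p = 0.21, 0.012 and 0.020). *Dppa3* gave 7.9, 6.1 and 8.2 CPM on 129, 100 and 125 counts, 56.7% of the Neg ESC mean (log2 fold change −0.82, SE 0.13, adjusted p = 4.8e-05). Beside these values, 5 of the 10 naive markers were called lower in 3xKD ESCs and none higher, and of the 9 formative markers 3 were lower and 2 higher. Of the 6 primitive endoderm markers 2 were called higher, with a summed level of 30.1 to 32.1 CPM against 21.1 to 24.2 CPM in Neg ESCs. Of the 6 trophoblast markers 2 were higher and 1 lower, at 69.8 to 81.8 CPM against 53.5 to 57.0 CPM. The 6 mesoderm and neural markers summed to 8.35 to 10.5 CPM against 9.64 to 10.4 CPM. The part of these markers in the differences was not tested.

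The third comparison is the same one in EpiLCs. *Dnmt3b*, *Dnmt3l* and *Tdg* were lower in 3xKD EpiLCs, *Dppa3* was higher, and the other 6 genes were not called. The count was again 4 of 10, beside 13.2% of all genes (7.88% higher and 5.35% lower) and 20.8% of those at 1 CPM or more. Both knockdown comparisons use the same 3xKD and Neg lines, but no library is shared between them.

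*Dnmt3b* gave 669, 660.0 and 659.9 CPM in 3xKD EpiLCs, 48.5% of the Neg EpiLC mean (log2 fold change −1.04, SE 0.045, adjusted p = 3.2e-11). No library came near the lowest Neg EpiLC value of 1273 CPM, and none was near the ESC level either. *Dnmt3l* was at 491, 496 and 480.4 CPM, 60.2% of Neg (log2 fold change −0.73, SE 0.035, adjusted p = 1.1e-10). *Dnmt3a* was at 817, 806 and 848 CPM, 73.9% of Neg and below all 3 Neg libraries, a difference under the fold limit (log2 fold change −0.44, SE 0.037, adjusted p = 6.3e-08). The de novo genes were thus not lower by a common factor, and the ratio of *Dnmt3a* to *Dnmt3b* per kilobase was 0.554 ± 0.0166 in 3xKD EpiLCs against 0.364 ± 0.0141 in Neg. The sum of both over the sum of *Tet1* and *Tet2* was 2.46 ± 0.123 against 5.09 ± 0.543.

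*Tdg* gave 116, 112 and 114 CPM in 3xKD EpiLCs, 64.5% of Neg (log2 fold change −0.63, SE 0.033, adjusted p = 2.4e-10). Its call depends on the scaling: the value was −0.57 with library size alone and −0.56 with transcript-length offsets, both short of the fold limit. The 2 pseudogene copies, *Tdg-ps* and *Tdg-ps2*, share sequence with *Tdg* and held 98 to 277 and 320 to 900 counts per library. Both were called lower as well, at −0.72 and −0.62, and the counting may divide reads among the 3 loci. Summing the 3, a step chosen after seeing the data, gave −0.64.

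*Dppa3* was at 1.3, 1.5 and 1.7 CPM in 3xKD EpiLCs on 21, 23 and 28 counts; the mean was 244% of the Neg EpiLC mean, which rests on 9 to 10 counts per library (log2 fold change 1.28, SE 0.22, adjusted p = 1.9e-04). Its level stayed far below the lowest ESC library, at 6.1 CPM. *Tet3* gave 44.3, 44.9 and 43.8 CPM, below the 54.1 to 56.0 CPM of Neg EpiLCs but within the fold limit (log2 fold change −0.32, SE 0.043). *Tet1*, *Uhrf1* and *Tet2* had values of 0.22, 0.22 and 0.13 on the log2 scale. For *Dnmt1* the value was 0.01 (SE 0.034, adjusted p = 0.93) and the libraries of the 2 EpiLC groups overlapped. Beside the lower de novo genes, 6 of 9 formative markers were called lower and 1 higher in 3xKD EpiLCs, and 3 of 6 trophoblast markers were called higher, with a summed level of 48.8 to 49.95 CPM against 19.5 to 22.7 CPM in Neg EpiLCs. Of 6 mesoderm and neural markers 1 was called lower, with a summed level of 24.0 to 28.0 CPM against 69.2 to 70.7 CPM. Most of that sum is the neural gene *Sox1*, at a mean of 21.6 CPM in 3xKD and 65.2 CPM in Neg EpiLCs. Of 6 primitive endoderm markers 2 were called lower (23.5 to 25.3 against 27.8 to 32.2 CPM), and of the 10 naive markers 3 were higher and 2 lower. The part of these in the differences was not tested.

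**Figure D3:**
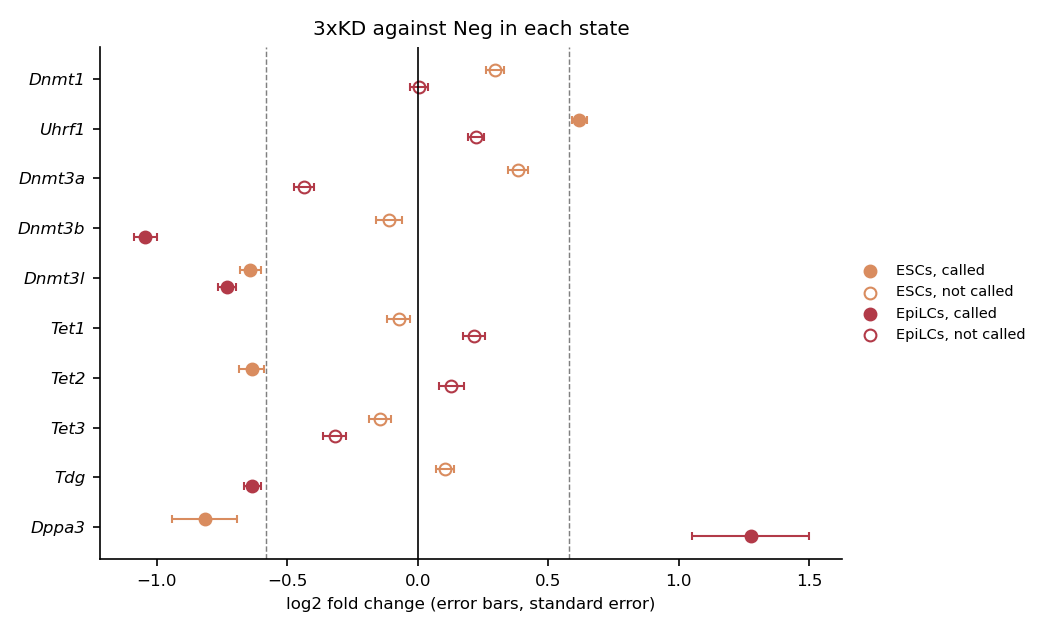
Log2 fold change of 3xKD against Neg (horizontal axis) for each of the 10 genes in ESCs and in EpiLCs, with SE bars; filled points are called and dashed lines mark the fold limit of 0.58. *Dnmt3l* is called lower in both states, whereas *Dppa3* is called lower in ESCs and higher in EpiLCs.

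The last comparison asks whether the 3xKD effect differed between the states. The difference of the 2 log2 fold changes was called (adjusted p under 0.01) for 8 of the 10 genes, beside 10% of all genes tested and 16.8% of those at 1 CPM or more. Of all genes 4.76% were called with a more positive and 5.27% with a more negative effect in EpiLCs. *Dppa3* (2.09, SE 0.25, adjusted p = 2.2e-05), *Tet2* (0.77, SE 0.067, adjusted p = 7.9e-07) and *Tet1* (0.29, SE 0.062, adjusted p = 0.0035) had the more positive effect in EpiLCs. *Dnmt3b* (−0.93), *Dnmt3a* (−0.82), *Tdg* (−0.74), *Uhrf1* (−0.40) and *Dnmt1* (−0.29) had the more negative effect in EpiLCs, with adjusted p of at most 3.8e-04 in the edgeR test. *Dnmt3l* had nearly the same effect in both states (difference −0.09, SE 0.053, adjusted p = 0.30), and *Tet3* did not pass (−0.18, SE 0.060, adjusted p = 0.059). The *Tet1* value lost its call without replicate 2 of Neg ESCs, 1 or 2 of 3xKD ESCs, 1 of Neg EpiLCs or 2 of 3xKD EpiLCs, at 0.23 to 0.28 with adjusted p of 0.0102 to 0.0157. Under transcript-length offsets neither *Tet1* (0.30, adjusted p = 0.034) nor *Dnmt1* (−0.31, adjusted p = 0.013) kept its call.

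Read along the transition, the same difference says that 3xKD cells rose less in 3 genes and more in *Tet1*. *Dnmt3b* rose 7.76-fold in 3xKD against 14.8-fold in Neg, and *Dnmt3a* 4.54-fold against 8.01-fold. *Tdg*, at 1.14-fold against 1.90-fold, was not called in 3xKD. *Tet1* rose 2.45-fold in 3xKD against 2.01-fold in Neg, a difference that several alternatives left uncalled. *Dnmt3l* rose 7.38-fold in 3xKD and 7.87-fold in Neg, from a start and to an end that were both lower. *Uhrf1* was called lower in 3xKD EpiLCs than in 3xKD ESCs (log2 fold change −0.75, SE 0.029), from the highest level of the 4 groups. *Tet2* did not fall in 3xKD cells (0.07, adjusted p = 0.26), and *Dppa3* was 4.91-fold lower against 21.1-fold in Neg. In 3xKD EpiLCs against 3xKD ESCs, 4 of the 10 genes were higher and 2 lower, where 18.7% of all genes were called (9.42% higher and 9.32% lower). Each of these state comparisons shares its libraries with the knockdown comparisons above, so they are other views of the same 12 values per gene.

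**Figure D4:**
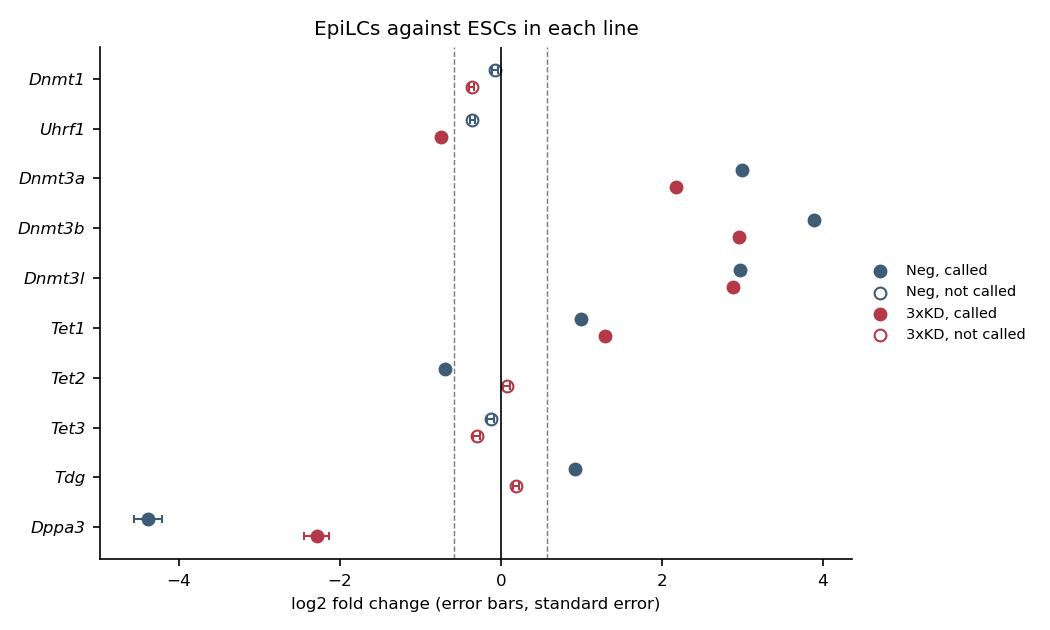
Log2 fold change of EpiLCs against ESCs (horizontal axis) for each gene in the Neg and in the 3xKD line, with SE bars; filled points are called and dashed lines mark the fold limit of 0.58. *Dnmt3a*, *Dnmt3b* and *Dnmt3l* are called higher in both lines, and the Neg and 3xKD points of *Dnmt3l* lie closest together among the 3.

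The wider pathway was read from 8 lists of 74 genes that act with these enzymes, of which 7 were called higher and 8 lower in 3xKD ESCs (20.3%) and 11 higher and 15 lower in 3xKD EpiLCs (35.1%). Of all genes at 1 CPM or more, 23.6% and 20.8% were called, so the ESC share was near the background. The 74 genes had a median of −0.07 on the log2 scale in both states, beside medians over all genes of 0.03 in each. The lists were read by counts and medians, and none was tested as a set.

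Of 10 partners of maintenance methylation, 1 was called in each state. *Zfp57*, which with TRIM28 keeps methylation at imprinted regions, was lower in 3xKD ESCs (log2 fold change −0.58, SE 0.039, beside the limit), and *Zfp445*, with a like role, was lower in 3xKD EpiLCs (−0.81, SE 0.038). *Hells*, the remodeler needed to methylate repeats, rose by 1.04 on the log2 scale in Neg EpiLCs and by 0.79 in 3xKD EpiLCs. Of 4 H3K36 methyltransferases, whose marks recruit DNMT3A and DNMT3B, *Nsd1* was called lower in 3xKD EpiLCs (−0.61, SE 0.039).

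Among 11 partners and regulators of the TET enzymes, 1 was called in 3xKD ESCs and 4 in 3xKD EpiLCs. *Zfp281*, a factor that works with TET1, was lower in both (−0.60 and −1.03, SE 0.036 and 0.035). *Qser1*, which guards unmethylated regions with TET1, was lower in 3xKD EpiLCs (−0.90, SE 0.049), as was *Sall4* (−0.68, SE 0.037). *Nanog* was higher there (1.07, SE 0.044), at 75.6 ± 2.52 CPM against 35.97 ± 1.98 CPM in Neg EpiLCs, both far below the 1020 ± 30.0 CPM of Neg ESCs.

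The base excision repair list holds 14 genes, among them glycosylases that can act beside TDG, enzymes of the later repair steps and the 3 Gadd45 genes, which are no enzymes of the pathway. It was the list with the highest median in both states (0.37 in ESCs and 0.37 in EpiLCs), with 4 called higher in 3xKD ESCs and 6 higher and 1 lower in 3xKD EpiLCs, beside higher calls for 8.5% of all genes in ESCs and 7.88% in EpiLCs, and lower calls for 5.35% in EpiLCs. *Neil1* and *Neil2*, glycosylases, were higher in both states, *Neil2* by 0.84 and 1.14 on the log2 scale (SE 0.11 each). *Gadd45b* was higher in both as well (1.24 and 0.75, SE 0.092 and 0.13), and *Gadd45a* in 3xKD EpiLCs (1.01, SE 0.068). *Gadd45g*, a stress-induced gene of the Gadd45 family, gave 1.47 ± 0.0485 CPM in Neg ESCs, 9.46 ± 0.323 in 3xKD ESCs, 75.8 ± 6.29 in Neg EpiLCs and 15.7 ± 1.80 in 3xKD EpiLCs. Its 3xKD effect was thus positive in ESCs (2.68, SE 0.13) and negative in EpiLCs (−2.27, SE 0.078), a called difference of −4.94 (SE 0.15).

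Of 7 methyl-CpG readers none was called in 3xKD ESCs (4 of 7 had an adjusted p under 0.01 in edgeR), and *Zbtb33* (−0.67, SE 0.077) was among those called lower in 3xKD EpiLCs. In the 7-gene SAM cycle list, *Mat2a*, which makes the methyl donor S-adenosylmethionine, was lower in both states, at 125 ± 2.59 against 261 ± 14.4 CPM in ESCs and 182 ± 3.05 against 353 ± 17.8 CPM in EpiLCs (log2 fold changes −1.07 and −0.95, SE 0.044 and 0.043). *Bhmt* was called higher in 3xKD EpiLCs from 0.0616 to 0.504 CPM, levels of a few counts. Among 7 genes of alpha-ketoglutarate and 2-hydroxyglutarate metabolism, *Idh2* was higher in both states, at 119 ± 4.52 against 55.8 ± 3.00 CPM in ESCs and 46.2 ± 3.33 against 14.3 ± 1.24 CPM in EpiLCs (1.09 and 1.70, SE 0.060 and 0.071). *D2hgdh*, at a mean of 1.03 to 3.41 CPM, was lower in both (−0.92 and −1.34, SE 0.25 and 0.28).

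The 14 germline genes that promoter methylation is known to silence gave calls in both directions. In 3xKD ESCs *Mael* and *Dpep3* were higher and *Dazl*, *Asz1* and *Slc25a31* lower. In 3xKD EpiLCs *Mael* and *Dpep3* were higher and *Asz1*, *Sycp1*, *Dazl* and 2 others lower. *Dazl* was at 353 ± 7.96 CPM in Neg ESCs, 207 ± 13.4 in 3xKD ESCs, 175 ± 7.52 in Neg EpiLCs and 82.3 ± 1.58 in 3xKD EpiLCs, and *Mael* at 11.4 ± 0.927, 25.2 ± 1.79, 48.4 ± 5.63 and 80.4 ± 2.98 CPM. Medians of the list were −0.09 and −0.30 in the 2 states.

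**Figure D5:**
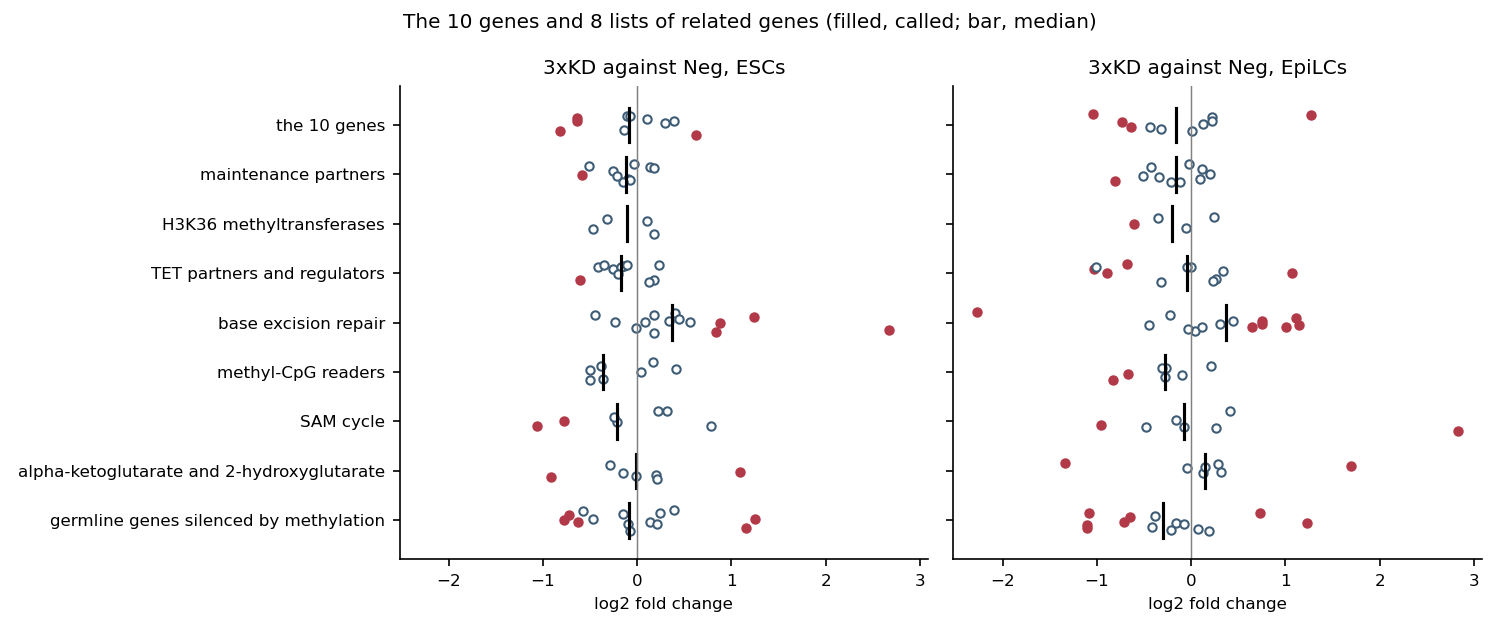
Log2 fold change of 3xKD against Neg (horizontal axis) in ESCs (left) and EpiLCs (right) for the 10 genes and for 8 lists of 74 related genes. Each point is a gene, filled when called, and black bars are list medians; base excision repair has a median of 0.37 in both states and *Gadd45g* lies at 2.68 on the left and −2.27 on the right.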

How the data were processed

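Single-end, rRNA-depleted, directional RNA-seq libraries were trimmed by the authors with Trim Galore 0.6.7, mapped to GRCm39 with STAR 2.7.9a and quantified per transcript with Salmon 1.10.1. The labels give polyA RNA, and the methods of the study were followed. The deposited estimated counts are not normalized, and the deposited TPM only weighted transcript lengths in the length-offset alternative. Here estimated counts were summed per gene, rounded, filtered at 10 counts over all 12 libraries, TMM-normalized and tested by quasi-likelihood in one model of the 4 groups (edgeR 4.0.16, R 4.3.3). SE is the log2 fold change over the square root of F. Levels between genes are CPM per kilobase of the longest coding transcript in GENCODE vM39, which matched 99.0% of genes and 99.9% of counts. The 10 genes, the 74 related genes and the markers were chosen with earlier results of these data known. Start-site shares use estimated counts in place of the planned TPM, which short transcript models inflate. Of the related genes at most the 3 largest called changes per list, comparison and direction are named, and of the genes most like each of the 10 the 3 with the highest r. The model was tested on simulated data. All replicate pairs were distinct libraries (chi-square over degrees of freedom 2.99 to 18.4). Alternatives were DESeq2 1.42.0, other scalings, filters and limits, a replicate block and each library left out in turn. Some items are not reported here.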

Additional observations from a re-analysis of the deposited data

Results flagged for a closer look

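A difference of the 3xKD effect between EpiLCs and ESCs, tested as an interaction in edgeR with adjustment over all genes, drew attention to 8 of the 10 genes. On the log2 scale it was −0.29 for *Dnmt1*, −0.40 for *Uhrf1*, −0.82 for *Dnmt3a*, −0.93 for *Dnmt3b*, 0.29 for *Tet1*, 0.77 for *Tet2*, −0.74 for *Tdg* and 2.09 for *Dppa3*. The largest of these in size, that of *Dppa3*, rests on 9 to 10 counts per Neg EpiLC library. Of the 8, only *Dppa3* was called in both states, lower in 3xKD ESCs (−0.82) and higher in 3xKD EpiLCs (1.28). *Dnmt3a* also changed sign (0.39 in ESCs and −0.44 in EpiLCs) but was called in neither state. *Tdg* was called in EpiLCs alone (0.11 in ESCs and −0.63 in EpiLCs).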

How the results depend on the processing

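Of 855 values of single genes under alternatives, 845 kept their direction and their side of the limits, 9 lost a call, 1 gained one and none that was called reversed, while 9 uncalled values changed sign. Transcript-length offsets moved *Dnmt3a* from 3.00 to 3.60 between Neg states, gave *Dnmt3a* in 3xKD ESCs a call (0.59), took the call of *Tdg* in 3xKD EpiLCs (−0.56, and −0.57 with library size alone), and took those of the differences of *Dnmt1* (−0.31) and *Tet1* (0.30). Without replicate 2 of Neg ESCs, 1 or 2 of 3xKD ESCs, 1 of Neg EpiLCs or 2 of 3xKD EpiLCs the *Tet1* difference was 0.23 to 0.28 and lost its call. With only an adjusted p limit of 0.05, the calls numbered 8 of the 10 genes in 3xKD ESCs and 9 in 3xKD EpiLCs. Of the 74 related genes, they numbered 57 in 3xKD ESCs and 57 in 3xKD EpiLCs. Between EpiLCs and ESCs they numbered 55 in Neg and 60 in 3xKD. The share of all genes under this limit was not counted, so these numbers do not set the genes apart from others. Offsets called the difference for 9 of the 74, against 20. The cause was not tested. Depth limits *Dppa3* in EpiLCs most, with 9 to 28 counts per library.

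No pairing of libraries by replicate number was seen: correlations of same-numbered libraries lay between −0.13 and 0.10. Low correlations cannot exclude a small effect shared by libraries of the same number. Of 36 pairings of a library with another group, 8 had the highest correlation at the same number. With the replicate number as a block the same counts of the 10 genes were called, 4, 4, 7, 6 and 8 in the 5 comparisons.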
